A study of Mus musculus with 6 samples.

Results

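Of 74686 open chromatin regions counted in tumor-infiltrating CD8 T cells of the mouse, 20789 lie between genes: they overlap no protein-coding gene body of RefSeq, and the nearest protein-coding gene is more than 2 kb and at most 100 kb away. Of the other regions, 18376 lie within 2 kb of an end of a protein-coding gene, 32041 lie inside a gene more than 2 kb from its ends, and 3480 lie more than 100 kb from any. The rule uses position alone and no measured value. Accessibility came from ATAC-seq, a method that tags exposed DNA with a transposase. The cells were OT1 T cells, whose transgenic receptor recognises a peptide of ovalbumin, taken from B16-OVA-GP61 tumors by sorting for CD8 and for CD45.1, an allele that marks transferred cells. That tumor is a melanoma line carrying ovalbumin and the viral epitope GP61. Libraries O1 to O3 came from tumors with OT1 cells and no SMARTA cells, and libraries OS1 to OS3 from tumors with both. SMARTA cells are CD4 T cells with a transgenic receptor for GP61. All 6 libraries therefore share the tumor line, the OT1 receptor and the sort. The sources used here do not give the hosts' age, sex or strain, the times of transfer and harvest, or which lymphocytes of their own the hosts had. Whether O1 to O3 and OS1 to OS3 stem from separate animals is also not said, so each p-value measures the spread between these libraries, which may be technical.

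Open chromatin between genes includes enhancers, short stretches bound by transcription factors that raise transcription of a gene at a distance, often by looping to its promoter. In T cells, enhancers change more between naive, effector, memory and exhausted states than promoters do, and much of the chromatin that marks exhausted CD8 T cells lies in such distal sites. A region can act on a gene other than its neighbour, so a gene name given with a region says only which protein-coding gene is nearest.

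The intergenic sites whose sequence could be read were start windows of long non-coding RNA genes (lncRNAs), from 250 bases before to 50 after the annotated start. Of these 300-base windows, 126 lay wholly inside an intergenic region. The 3 from closed regions and the 3 from opened regions with the smallest p are shown as examples from the 2 directions of change. Closed and opened mean past an edgeR adjusted p of 0.05, with lower or higher accessibility in the group with SMARTA cells. Only 10 of the windows lay in closed and 9 in opened regions, so they stand for few of the called regions. The sequences are from RefSeq (GRCm38.p6), 5′ to 3′ on the strand of the lncRNA, and capitals mark matches on either strand to the motifs of T cell factors listed after them. The closed windows are those of Gm46107 (chr9:37555194-37555493, plus strand, 2.13 kb from the neurogranin gene Nrgn), Gm42294 (chr4:63771482-63771781, plus strand, 26.4 kb from Tnfsf15, which encodes the cytokine TL1A) and Gm41508 (chr16:95921158-95921457, plus strand, 58.4 kb from Psmg1).
Gm46107: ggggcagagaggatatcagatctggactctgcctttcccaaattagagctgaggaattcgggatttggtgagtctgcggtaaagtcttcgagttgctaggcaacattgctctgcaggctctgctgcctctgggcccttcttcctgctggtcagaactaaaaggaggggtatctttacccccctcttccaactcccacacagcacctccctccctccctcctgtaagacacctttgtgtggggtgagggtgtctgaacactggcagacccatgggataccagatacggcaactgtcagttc
Gm42294: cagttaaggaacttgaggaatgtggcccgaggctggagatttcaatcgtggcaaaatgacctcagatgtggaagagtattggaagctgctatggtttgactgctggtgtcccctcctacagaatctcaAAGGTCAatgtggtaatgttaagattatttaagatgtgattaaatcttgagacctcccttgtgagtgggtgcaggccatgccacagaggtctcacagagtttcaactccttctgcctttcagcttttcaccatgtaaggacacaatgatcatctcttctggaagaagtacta
Gm41508: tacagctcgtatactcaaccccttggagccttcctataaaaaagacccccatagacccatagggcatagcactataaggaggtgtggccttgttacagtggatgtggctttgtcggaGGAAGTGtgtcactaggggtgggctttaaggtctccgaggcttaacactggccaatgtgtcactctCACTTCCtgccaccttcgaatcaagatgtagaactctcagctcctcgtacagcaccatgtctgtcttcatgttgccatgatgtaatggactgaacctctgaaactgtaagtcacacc
The opened windows are those of Gm39321 (chr9:42141831-42142130, plus strand, 17.5 kb from the sorting receptor gene Sorl1), Gm19619 (chr5:91283027-91283326, minus strand, 73.9 kb from the growth factor gene Btc) and Gm5547 (chr3:105815317-105815616, plus strand, 13.9 kb from the GTPase gene Rap1a).
Gm39321: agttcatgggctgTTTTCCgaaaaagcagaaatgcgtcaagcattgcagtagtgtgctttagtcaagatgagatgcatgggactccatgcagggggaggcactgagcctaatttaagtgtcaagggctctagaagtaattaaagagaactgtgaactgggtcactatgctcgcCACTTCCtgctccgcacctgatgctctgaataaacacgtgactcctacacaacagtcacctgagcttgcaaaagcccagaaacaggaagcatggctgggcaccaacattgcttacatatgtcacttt
Gm19619: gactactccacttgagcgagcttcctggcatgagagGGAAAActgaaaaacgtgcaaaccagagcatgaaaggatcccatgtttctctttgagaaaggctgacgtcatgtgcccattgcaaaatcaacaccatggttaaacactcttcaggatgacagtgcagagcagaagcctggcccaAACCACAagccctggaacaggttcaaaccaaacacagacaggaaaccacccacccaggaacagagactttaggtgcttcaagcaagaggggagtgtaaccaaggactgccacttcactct
Gm5547: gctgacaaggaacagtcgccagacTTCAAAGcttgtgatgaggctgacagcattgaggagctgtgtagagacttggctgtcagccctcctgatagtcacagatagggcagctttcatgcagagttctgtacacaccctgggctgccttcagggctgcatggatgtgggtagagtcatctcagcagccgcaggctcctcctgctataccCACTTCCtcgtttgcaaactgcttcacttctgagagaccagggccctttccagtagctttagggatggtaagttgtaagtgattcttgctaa
Searched were AP-1 (TGANTCA), RUNX (TGTGGTT), ETS (GGAAGTG), an E-box (CAGCTG), TCF (CTTTGAA), an NFAT-like core (GGAAAA) and NR4A (AAGGTCA), on both strands; the motifs can overlap one another. The Gm46107 window held none of them. Positions are counted from 1 at the 5′ end of the window. Gm42294 held an NR4A match at position 129, Gm41508 held ETS matches at 118 and 184, Gm39321 held an NFAT-like match at 14 and an ETS match at 174, Gm19619 an NFAT-like match at 37 and a RUNX match at 181, and Gm5547 a TCF match at 25 and an ETS match at 209. Of all 32851 start windows in the RefSeq table, 11% held the ETS letters, 23.4% the NFAT-like core, 5.27% RUNX, 5.14% TCF and 4.72% NR4A. AP-1 letters were in 7.81% of all windows and the E-box in 16.3%. Among windows inside intergenic regions, ETS letters were in 2 of 10 closed, 4 of 9 opened and 21 of 107 that were not called. AP-1 letters were in 0 of the 10 closed windows, 1 of the 9 opened ones and 13 of the 107 that were not called. These are matches of letters in few windows, with no statement about binding.

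Accessibility is given throughout as log2 CPM (log2 of counts scaled to library size by TMM, with a prior count of 2), in the order O1, O2, O3 and then OS1, OS2, OS3. At the Gm46107 region the 3 libraries without SMARTA cells lay at 3.48, 3.68 and 3.65 log2 CPM and the 3 with them at 1.40, 1.01 and 1.18. All 3 libraries with SMARTA cells were thus below all 3 without (log2 fold -2.45 ± 0.20 SE, edgeR adjusted p = 0.00022). The Gm42294 region went from 1.47, 1.84 and 1.64 to -0.51, 0.07 and -0.62 log2 CPM, and the Gm39321 region from 1.45, 1.53 and 1.34 to 2.33, 2.78 and 2.64. Neither of the 2 had overlapping groups (log2 folds of -2.14 ± 0.28 and 1.18 ± 0.20, edgeR adjusted p = 0.0010 and 0.0038). The Gm5547 region rose by less, from 4.49, 4.55 and 4.43 to 5.10, 5.10 and 4.93 (0.55 ± 0.12, edgeR adjusted p = 0.011). At the Gm41508 and Gm19619 regions the log2 folds were -1.56 ± 0.26 and 1.38 ± 0.26. The adjusted p of the Gm5547 region reached 0.059 with 1 library left out, while the other 5 regions kept their call in all 6 such fits.

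The libraries held 16595779 to 27182809 counts over the table and 2500202 to 4416455 over intergenic regions, with a median of 52 to 92 counts per intergenic region. Regions at the T cell genes Cd3e, Cd8a and Cd8b1 were accessible in every library: the most accessible region of each lay between 4.52 and 6.17 log2 CPM. No region of the table lay at the melanocyte genes Dct and Tyr, while the most accessible one at Pmel lay between 5.49 and 6.09. Library OS2 had the fewest counts, and a peak of its own list lay over 66.6% of the intergenic regions, against 78.8% to 89.9% in the other 5 libraries.

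With SMARTA cells, more intergenic regions lost accessibility than gained it. Of the 20789 regions, 2585 closed (12.4%, against 10.4% of all 74686 regions) and 809 opened (3.89%, against 4.68% of all regions). The losses were also larger: the median log2 fold was -1.41 among closed and 0.87 among opened regions, and 2119 closed but only 266 opened by 2-fold or more (1638 and 164 without O2). This was much the same over all 74686 regions, where the medians were -1.36 and 0.77. There 6188 of 7767 closed regions and 874 of 3497 opened ones changed by 2-fold or more. The order of the opened shares turned with the scaling: under loess scaling by abundance 5.16% of intergenic and 4.95% of all regions opened, and by DESeq2 4.68% and 4.74%. The median log2 fold over all intergenic regions was -0.02, against 0.01 over all regions. In these bulk libraries, fewer cells with an open site and less opening in each cell cannot be told apart. The counts were 1547 closed and 380 opened without OS3, 1719 and 315 without O2, 1673 and 313 without O3, and 2049 and 484 without O1. Without OS2 they were 2744 and 1164. Under each of these alternatives 0 regions were called in the direction opposite to the main fit.

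The share of regions that closed rose with distance from genes. At 2 to 5 kb from a gene 8.88% of 3276 regions closed, at 5 to 10 kb 10.9% of 4074, at 10 to 20 kb 12.5% of 4740, at 20 to 50 kb 14.1% of 5680 and at 50 to 100 kb 15.2% of 3019. Regions within 2 kb of a gene end closed in 4.06% of cases and those over 100 kb away in 17.3%. The opened share varied less, from 3.48% at 2 to 5 kb to 4.21% at 50 to 100 kb. It was 5.08% within 2 kb of gene ends, a share that fell below those of the 5 intergenic classes with another scaling or tool (2.31% under loess scaling, 2.70% under total-count scaling and 2.85% by DESeq2) and was 1.68% without O1 or O2, 1.10% without O3 and 3.05% without OS3. Opened shares of the intergenic classes were 1.86% to 2.57% without O1, 1.07% to 1.73% without O2, 1.01% to 1.82% without O3 and 1.25% to 2.22% without OS3. Regions inside genes, over 2 kb from the ends, closed in 12% and opened in 4.88%, so the intergenic regions at 10 to 20 kb closed about as often as they did. With the regions joined into 2 to 10, 10 to 50 and 50 to 100 kb, the closed shares were 9.99%, 13.4% and 15.2%. This order held in all 13 settings tried, which include the main fit and reuse the same libraries. Without OS3 these shares were 5.82%, 7.93% and 9.71%, without O2 6.29%, 9.09% and 10.3%, and without O3 6.29%, 8.69% and 10.1%. Within 2 kb of gene ends the closed share was then 1.93%, 2.29% and 2.23%, inside genes 6.72%, 7.52% and 7.38%, and over 100 kb away 10.0%, 11.9% and 11.5%.

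**Figure D1:**
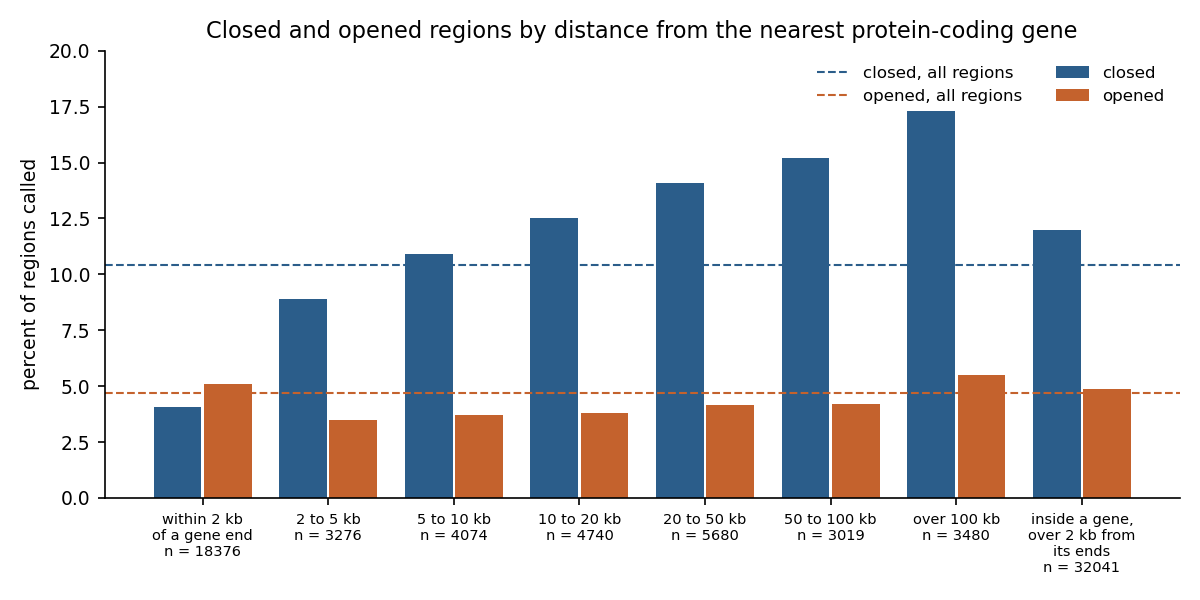
Percent of regions called closed or opened by distance from the nearest protein-coding gene (bars; n under each class), with dashed lines at the percentages over all 74686 regions, 10.4% and 4.68%. The closed share climbs from 4.06% within 2 kb of gene ends to 17.3% over 100 kb away, while the opened share stays between 3.48% and 5.52%.

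Distance and accessibility moved together, since regions near genes were more open: the median level was 1.97 log2 CPM at 2 to 5 kb and 1.64 at 50 to 100 kb, against 3.98 within 2 kb of gene ends. Nearly all regions have 1 length (401 bases; 433 intergenic ones are longer), so levels can be compared between them. With all regions of the table divided into 5 equal classes by mean log2 CPM, intergenic regions 20 to 100 kb from genes closed more often than those at 2 to 10 kb within every class. In the lowest class the shares were 17.4% and 11.6%, and in the highest 6.83% and 5.43%. In the lowest class they were 7.44% and 4.81% without OS3, 11% and 6.50% without O2, 10.2% and 6.31% without O3 and 11.5% and 7.35% without OS1, and in the highest 4.33% and 2.98%, 3.90% and 2.46%, 3.58% and 2.33%, and 8.56% and 8.28%. The same order was found in 65 of 65 combinations of class and setting. The 13 settings are not independent: all reuse the same libraries, and 1 of them is the main fit. The fit without a filter equals the main fit, since the filter removed 0 regions. In the same 65 combinations the closed share of intergenic regions was above that of regions within 2 kb of gene ends. Against regions inside genes no such order held. In the main fit those closed in 13.5%, 13.9%, 13.9%, 10.2% and 4.48%, from the lowest class to the highest. Intergenic regions closed in 15.3%, 14.1%, 12.8%, 10.2% and 6.07%. These shares are descriptions over regions of the same 6 libraries and carry no test.

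Under TMM scaling, closed regions prevailed among weak sites and opened ones among the strongest. In the lowest class, -0.87 to 0.91 log2 CPM, 15.3% of 4859 intergenic regions closed and 1.19% opened. In the highest class, 4.16 to 7.66 log2 CPM, 6.07% of 2192 closed and 9.63% opened. Without OS3 the shares were 6.69% and 0.206% in the lowest class and 3.65% and 5.79% in the highest. They were 9.41% and 0.247%, and 3.24% and 5.25%, without O2, and 8.83% and 0.247%, and 2.97% and 4.65%, without O3. In the highest class 5.06% closed and 5.89% opened without O1. The order in the highest class turned under loess scaling by abundance, where 10.6% closed and 7.80% opened, and in the lowest class loess scaling gave 12.7% and 4.05%. In the 3 classes between, closed regions outnumbered opened ones under both scalings.

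**Figure D2:**
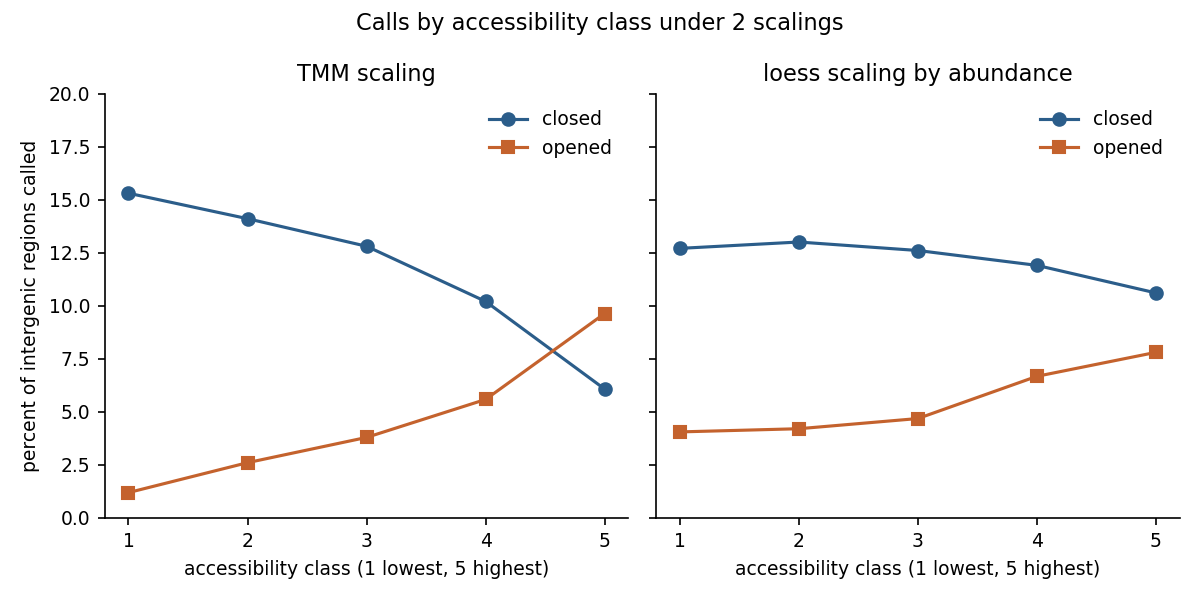
Percent of intergenic regions called closed (circles) or opened (squares) in 5 accessibility classes, under TMM scaling and under loess scaling by abundance. Under TMM scaling the lines cross, with 6.07% closed and 9.63% opened in the highest class; under loess scaling closed stays above opened in all 5 classes.

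Over whole libraries, intergenic regions held a smaller part of the counts with SMARTA cells. The libraries without SMARTA cells gave 17%, 16.8% and 16.9% of their counts to intergenic regions, and those with them 16.1%, 15.1% and 16.1%. All 3 with SMARTA cells were below all 3 without, with OS2 lowest. The means were 16.9% ± 0.0549 and 15.8% ± 0.600 (SD, n = 3 each), a difference of -1.14 percentage points (exact permutation test, two-sided, p = 0.10, the smallest p that 3 against 3 libraries allow). Without OS2 the difference was -0.799 points. Regions within 2 kb of gene ends moved the other way, from 53.4%, 53.5% and 53.4% to 54.8%, 58.1% and 55.2%. The fall was not particular to intergenic regions. Regions inside genes went from 27.1%, 27.2% and 27.3% to 26.7%, 24.8% and 26.5%, a difference of -1.21 points. For regions over 100 kb from genes the difference was -0.273 points. All these shares are parts of the same total. Inside the intergenic regions, those beyond 50 kb held 13.9%, 14.0% and 14.0% of the counts without SMARTA cells and 13.8%, 13.1% and 13.5% with them (difference -0.502 points, exact permutation test, two-sided, p = 0.10). That second difference was -0.317 points without OS2, and -0.0654 points (exact permutation p = 0.40) where distance was measured to every annotated gene and not to protein-coding genes alone. The mean TMM-scaled CPM of intergenic regions differed by -0.327 CPM (exact permutation p = 0.30).

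The peak lists that the authors called in each library separately, from the same reads, show which changed sites were left without a listed peak. Of the 2585 closed regions, 1019 (39.4%) lay under no peak of any of the 3 lists with SMARTA cells, and 657 of these lay under a peak in all 3 lists without them. A further 656 closed regions (25.4%) lay under a peak in all 6 lists. Of the 809 opened regions, 598 (73.9%) lay under a peak in all 6 lists and 106 (13.1%) under none of the 3 lists without SMARTA cells. Among the 17395 regions not called, 10360 (59.6%) lay under a peak in all 6 lists. Of these 17395, 5.16% lay under none of the 3 lists with SMARTA cells and 3.56% under none of the 3 without. The list of OS2 covered the fewest intergenic regions, 66.6%, which limits the counts that rest on it. Opened regions were thus mostly sites already listed as peaks without SMARTA cells.

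Among regions whose groups did not overlap, the 10 closed ones with the smallest p lay under a peak in all 3 lists without SMARTA cells, and 5 of them lay under none of the 3 lists with them. A region 96.4 kb from Dock10, a guanine nucleotide exchange factor (chromosome 1, 80855206 to 80855606, GRCm38), lay at 2.91, 3.32 and 3.43 log2 CPM without SMARTA cells and at -0.07, 0.15 and 0.09 with them. The groups did not overlap, and none of the 3 peak lists with SMARTA cells covers the site (log2 fold -3.29 ± 0.24, edgeR adjusted p = 0.00021). Between the succinate receptor gene Sucnr1 and Mbnl1 a pair of regions 36.8 and 40.7 kb from Sucnr1 both closed, the farther one from 3.45, 2.95 and 3.31 to -0.51, -0.41 and 0.09 (the farther region's log2 fold was -3.61 ± 0.26). The region 4.73 kb from Cenpa, which encodes the histone variant of centromeres (chromosome 5, 30679570 to 30679970), started higher, at 4.90, 4.52 and 4.71, and kept 1.89, 0.97 and 1.50 with SMARTA cells (-3.25 ± 0.24, edgeR adjusted p = 0.00021). The remaining 6 of the 10 closed regions with the smallest p, nearest to Scaf4, Uqcrfs1, Abhd4, Zfp365, Nfkbiz and Thap12, had log2 folds from -3.43 to -2.83. All 10 kept their call whichever library was left out.

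The 10 opened regions with the smallest p, chosen in the same way, covered a wide range of levels: the 5 with a mean of 4.79 to 5.87 log2 CPM gained 0.69 to 1.02 on the log2 scale, and the 5 with a mean of 1.39 to 3.36 gained 1.64 to 2.05. The region 9.07 kb from Coa7, a factor of cytochrome oxidase assembly (chromosome 4, 108318685 to 108319085), rose from 5.29, 5.30 and 5.30 to 5.92, 5.94 and 6.08 log2 CPM (0.69 ± 0.08, edgeR adjusted p = 0.00054). Near Trmt61a, a tRNA methyltransferase, a region 7.30 kb away rose from 5.11, 5.11 and 5.00 to 5.82, 5.83 and 5.72. In both, the 3 libraries of each group lay close together and the groups were well apart. Of the 5 less accessible sites, the one 14.6 kb from the carbonic anhydrase gene Car2 (chromosome 3, 14915384 to 14915784) rose from 0.79, 0.56 and 0.41 to 2.19, 2.31 and 2.09 and was a peak only in the 3 lists with SMARTA cells (1.66 ± 0.21, edgeR adjusted p = 0.00078). The one 37.1 kb from Kif2a, a microtubule-depolymerising kinesin, rose from 2.33, 2.39 and 2.90 to 4.03, 4.19 and 4.35 (1.64 ± 0.21). The other 6, nearest to Elovl5, Cpn2, Arl14, Spats1, Pwwp2b and Qpct, rose by 0.73 to 2.05.

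**Figure D3:**
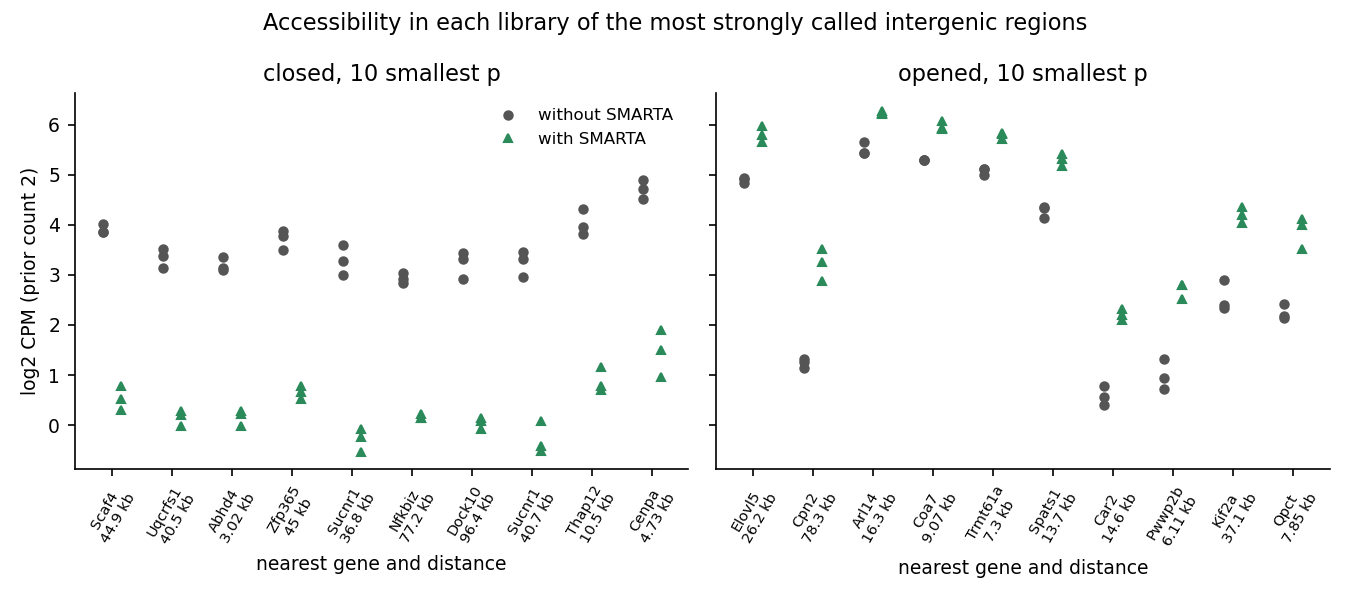
Accessibility (log2 CPM, prior count 2) in each library of the 10 closed and 10 opened intergenic regions with the smallest p, labelled by nearest gene and distance; circles are libraries without and triangles libraries with SMARTA cells. The rule asks that the groups be apart; closed regions end between -0.53 and 1.89 log2 CPM, and 4 of the opened ones lie between 4.84 and 6.28 in all 6 libraries.

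The most accessible intergenic regions of all were near Zfp958, Slc2a3, Zswim4, Prss2 and Zfp36l2, and moved little. The region 8.43 kb from Slc2a3, which encodes a glucose transporter, lay at 7.18, 7.28 and 7.13 log2 CPM without and 7.38, 7.47 and 7.32 with SMARTA cells (log2 fold 0.19 ± 0.06, edgeR adjusted p = 0.052). The region nearest to Prss2 lies in the T cell receptor beta locus, 29.2 kb from the gene, and its groups overlapped (-0.14 ± 0.07, edgeR adjusted p = 0.25). Of these 5, the one near Zswim4 passed, by 0.31 ± 0.08 (edgeR adjusted p = 0.030), and it kept its call in only 2 of the 6 fits with 1 library left out.

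The limits of 2 and 100 kb cut through a continuum. Just inside, at 2001 bases, a region near Rgs3 closed (-1.44 ± 0.20) and one near Ccnl1 had a log2 fold of -0.49 ± 0.37. Just outside, at 2000 bases, regions near Ccr6 and Csf1 had folds of -0.99 ± 0.30 and -0.39 ± 0.25. At the far limit the nearest inside lay 99990 bases from Ifngr1 (-0.02 ± 0.19) and 99925 bases from Ralgapa2 (0.14 ± 0.25), and the nearest outside 100013 bases from Try4 (0.19 ± 0.21) and 100027 bases from Ets2 (0.57 ± 0.21).

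The intergenic regions fall into 6346 gaps between neighbouring protein-coding genes, of which 2449 hold a single region and 376 hold 10 or more. Of all called intergenic regions 76.2% had closed. Closed regions also outnumbered opened ones over the whole table, 7767 against 3497, and inside genes, 3835 against 1563. Of the 750 gaps with 2 or more called regions, 486 held closed ones alone, 94 opened ones alone and 170 both. Those 3 counts were 393, 58 and 95 without O1, 326, 34 and 56 without O2, 319, 34 and 46 without O3, 454, 145 and 256 without OS2 and 281, 42 and 64 without OS3. Regions of a gap share a neighbourhood and are not independent of each other.

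The gap with the most closed regions lies between Perp, a p53 target of cell death, and Tnfaip3, which encodes A20, a brake on NF-kB signalling. Over its 144 kb, 13 of 32 intergenic regions closed, 29 of the 32 had a negative fold, and the remaining 19 did not pass. The closed regions spread over 133 kb, with log2 folds from -3.08 to -0.45. The one with the smallest p (chromosome 10, 18979475 to 18979875, 21.0 kb from Tnfaip3) lay at 2.1, 2.34 and 2.45 log2 CPM without and at -0.87, -0.30 and 0.19 with SMARTA cells. Its groups were far apart (-2.66 ± 0.28, edgeR adjusted p = 0.00042). The gap's median log2 fold was -0.55, and 9 to 14 regions closed when 1 library was left out.

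Between Myb, a transcription factor of blood progenitors and of stem-like T cells, and Hbs1l lies an interval known in mouse and human erythroid cells for distal enhancers of Myb. Here 11 of its 20 intergenic regions closed, over 105 kb, with log2 folds from -2.56 to -0.92 and a median over all 20 of -0.94. The region 47.0 kb from Hbs1l (chromosome 10, 21248536 to 21248936) went from 1.95, 2.25 and 2.63 to 0.08, -0.10 and -0.25 log2 CPM, with no overlap (-2.51 ± 0.26, edgeR adjusted p = 0.00038). The count was 6 without OS3 and 7 without O1.

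In the other gaps picked for the most closed regions, the closed part ran from 10 of 12 regions to 11 of 29. That range follows from the choice, since 4440 of the 6346 gaps held no called region. Between Adamts6, which encodes a secreted metalloprotease, and the splicing factor gene Cwc27, 10 of 12 regions closed and the median log2 fold was -1.79. Its strongest (chromosome 13, 104553334 to 104553734) fell from 2.04, 2.51 and 2.60 to -0.07, 0.15 and 0.32 (-2.35 ± 0.24, edgeR adjusted p = 0.00038). Between Zpld1 and Nfkbiz, a nuclear regulator of NF-kB, 10 of 14 closed (6 without OS3), over 64.9 kb. Between the forkhead gene Foxn3 and Efcab11, 10 of 16 closed, led by a region 46.8 kb from Foxn3 that went from 3.88, 4.19 and 4.25 to 1.12, 0.07 and 0.28 (-3.63 ± 0.29). OS1 kept the most signal there among the libraries with SMARTA cells, and stayed below O1 to O3. Between Npl and Rgs8, a regulator of G protein signalling, 10 of 16 closed, and 5 without OS3. The gap from Ube2e3 to Itga4, the gene of the alpha chain of the integrin VLA-4, spans 327 kb, and 11 of its 29 regions closed. From Uqcrfs1 to the phosphatase gene Dusp22, 11 of 27 closed, and 7 without O2 or O3.

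Gaps in which regions opened together were fewer and held fewer called regions. Between Slc25a33, a mitochondrial carrier, and Spsb1, 5 of 10 regions opened and the count was 5 or 6 whichever library was left out. All 5 lay within 35.2 kb, and the one 15.8 kb from Spsb1 (chromosome 4, 149880060 to 149880460) rose from 4.08, 4.18 and 4.36 to 5.06, 5.46 and 5.31 log2 CPM (1.08 ± 0.14, edgeR adjusted p = 0.00099). Between Tha1 and Socs3, an inhibitor of cytokine receptor signalling, 4 of 12 opened and all 12 had a positive fold. A region 41.0 kb from Tha1 rose there from -0.65, -0.76 and -0.06 to 0.69, 1.39 and 1.18, near the floor of the scale (1.69 ± 0.33, edgeR adjusted p = 0.0081). The count was 1 without O2 and 2 without O3 or OS3. Between the cadherin genes Cdh3 and Cdh1, 4 of 6 opened, and 2 without O1 or O2. Between the zinc finger genes Zbtb10 and Zfp704, 4 of 6 opened within 8.36 kb, and 2 without the same libraries.

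The long gap beside Bcl11b, a factor that keeps T cell identity, held 5 opened regions of 22, all with gains under 1 on the log2 scale, from 0.54 to 0.94. That count moved most among these gaps: it was 0 without O3, 2 without O1 or OS3, and 3 without O2 or OS1. Between Glrp1 and Arl4c, a small GTPase, 5 of 31 regions opened and 2 closed. The opened count there was 3 without OS3, and 1 region closed without O2, O3, OS1 or OS3. Its strongest region, 43.1 kb from Arl4c, rose from 5.44, 5.63 and 5.50 to 6.0, 6.12 and 6.08 (0.54 ± 0.08, edgeR adjusted p = 0.0020).

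Gaps rich in open sites did not all change. The gap from Gm36448 to Dad1 holds the T cell receptor alpha locus and the most intergenic regions, 49, crowded at the Dad1 end. There 3 closed, 46 did not pass, and the median log2 fold was -0.04; 5 closed and 1 opened without OS1, and 6 closed under loess scaling. In the gap from Nrp1, a co-receptor for semaphorins, to Itgb1, an integrin chain, 4 of 47 regions closed, 2 without O2 or O3 and 1 without OS3. The median there was 0.07, and 24 regions had a positive and 23 a negative fold.

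**Figure D4:**
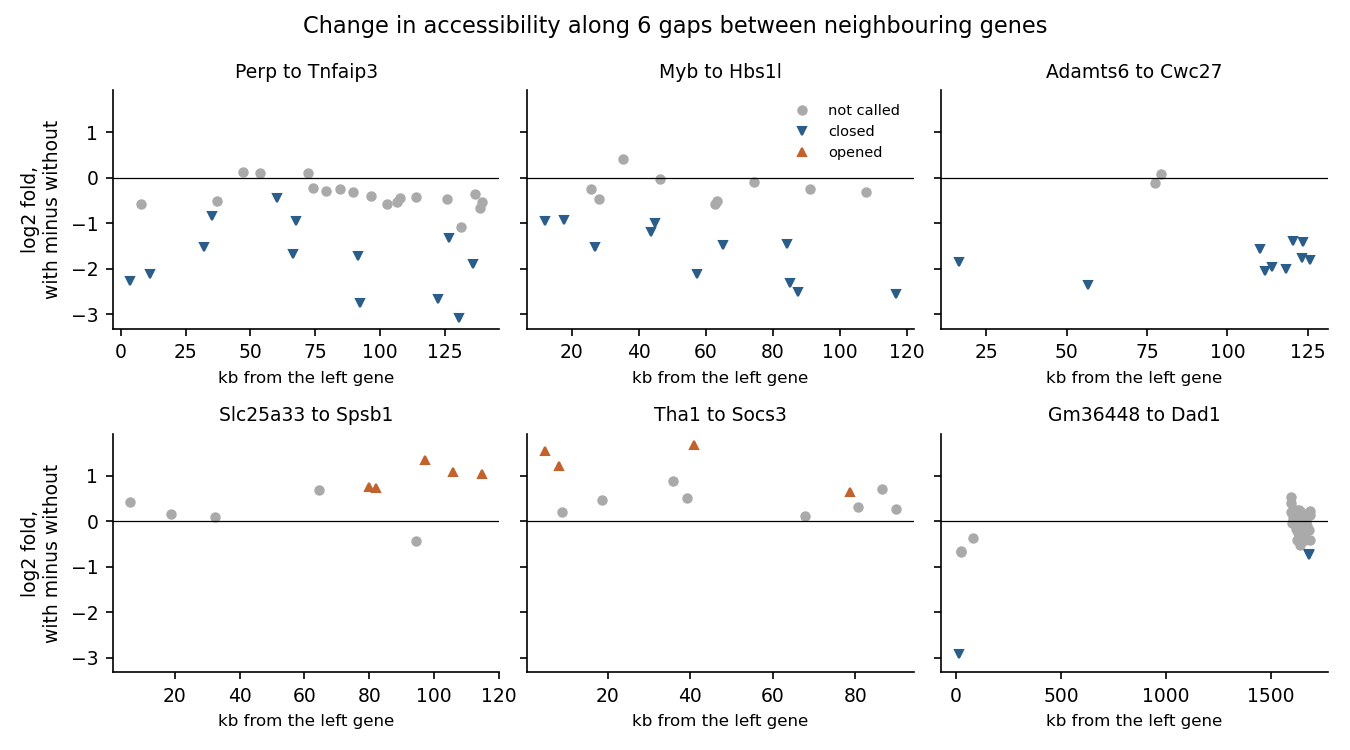
Log2 fold (with minus without SMARTA cells) of each intergenic region against its distance in kb from the left gene, in 6 gaps between neighbouring genes; triangles pointing down are closed, triangles pointing up opened, grey circles not called. The closed sites of Perp to Tnfaip3 and of Myb to Hbs1l span 133 and 105 kb, 8 of the 10 closed sites of Adamts6 to Cwc27 lie 110 to 126 kb from Adamts6, in Slc25a33 to Spsb1 the opened ones sit within 35.2 kb, and in Gm36448 to Dad1 most sites lie near 0.

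Genes of T cell function were then taken in lists, each region counted with its nearest gene. The lists were written with earlier results of these data known, so their shares are descriptions and not independent evidence. In each list or gap, the strongest region is the called one with the smallest p. Near transcription factors of exhaustion and activation, 31 of 124 intergenic regions closed (25.0%) and 5 opened (4.03%), with a median log2 fold of -0.34. For comparison, 10.4% of all regions closed and the median over all was 0.01. Of 16 genes, 8 had closed regions alone, 4 both kinds and 4 neither. Prdm1, which encodes Blimp-1, had 6 closed of 18; the one 36.1 kb away (chromosome 10, 44400655 to 44401055) was a strong site and fell from 5.31, 5.36 and 4.99 to 4.18, 3.25 and 3.91 log2 CPM (-1.40 ± 0.21, edgeR adjusted p = 0.0023). Every library with SMARTA cells lay below every library without, and the site was still a peak in all 6 lists. Near Maf, a bZIP factor that drives interleukin-10, 4 of 6 closed, the strongest from 1.71, 1.17 and 1.78 to -0.14, 0.23 and 0.28 at 77.8 kb (-1.51 ± 0.27). Near Tox2, a relative of the exhaustion factor Tox, 4 of 5 closed, the strongest from 1.97, 2.31 and 1.65 to 0.69, -0.20 and 0.32 (-1.75 ± 0.28). In neither case did the groups overlap. Near Tox itself 0 of 4 regions were called by edgeR, whichever library was left out, with 0 at an unadjusted p under 0.05 and 0 called by DESeq2, and the median log2 fold was -0.32. The list's closed and opened counts were 17 and 0 without O2, 20 and 0 without O3, 16 and 2 without OS3, 29 and 1 without O1 and 29 and 3 without OS1. Prdm1 had 2 closed without O1 or OS3 and 3 without O2, Maf 1 without O2 and 2 without O3, OS1 or OS3, and Tox2 2 without O2.

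Near inhibitory receptors, which restrain T cells, 13 of 50 regions closed (26.0%) and 2 opened (4.0%), with a median of -0.36. The region 22.1 kb from Pdcd1, the gene of PD-1 (chromosome 1, 94074697 to 94075097), lies on the side where mouse enhancers that open in exhausted CD8 T cells are known. Among the sites of this list whose levels are given here it was the most accessible without SMARTA cells, at 6.10, 5.54 and 5.31 log2 CPM. With them it fell to 4.12, 2.46 and 4.16. OS2 was lowest, but OS1 and OS3 were also below every library without SMARTA cells (-1.92 ± 0.36, edgeR adjusted p = 0.0061). Lag3, a receptor for MHC class II, had 3 closed regions of 3. The one 2.09 kb away, toward Cd4, fell from 4.42, 4.76 and 4.66 to 2.52, 1.51 and 1.84 (-2.62 ± 0.26, edgeR adjusted p = 0.00032). The region 37.0 kb from Tigit, a receptor for nectins, fell from 4.21, 3.89 and 4.01 to 2.47, 1.45 and 2.16 and was left under no peak of the 3 lists with SMARTA cells (-1.97 ± 0.26). Strongest regions near Ctla4, Nt5e (the ecto-enzyme CD73) and Lair1 (a collagen receptor) closed by -1.41 ± 0.21, -1.88 ± 0.26 and -1.51 ± 0.20. The single region near Cd101 opened by 0.74 ± 0.19, a call kept in 1 of the 6 fits with a library left out. In the list 1 region opened without O1, O2, OS1 or OS3, and 0 without O3. Of the 7 regions near Pdcd1, 2 closed, 4 were not called, and 1 opened, 39.2 kb away (log2 fold 0.79, edgeR adjusted p = 0.012), with a median log2 fold of -0.17. Pdcd1 had 1 closed region without O2 or OS3, and its opened region lost its call without O3.

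Near cytotoxic and effector molecules 35 of 121 regions closed (28.9%) and 2 opened (1.65%), with a median of -0.37. Ifng, the gene of interferon gamma, had 30 intergenic regions, of which 10 closed and 1 opened. Xcl1, a chemokine for cross-presenting dendritic cells, had 5 closed of 20, and Fasl, the ligand of the death receptor Fas, 5 of 18. A region 29.1 kb from Fasl fell from 3.5, 4.5 and 4.2 to 2.60, 2.14 and 2.23 (-1.81 ± 0.27, edgeR adjusted p = 0.0020). A region 16.1 kb from Il10, the gene of the anti-inflammatory cytokine interleukin-10, fell from 4.24, 4.10 and 3.31 to 2.04, 0.30 and 1.57 (-2.48 ± 0.39). Libraries within each group differed more here than at most sites, and the groups still did not overlap. Near Tnfsf10, the death ligand TRAIL, a site fell from 3.73, 3.56 and 3.92 to 2.66, 2.20 and 1.77 (-1.51 ± 0.25). Near Ccl5, a chemokine of effector cells, 1 of 5 regions opened, from 1.69, 1.35 and 1.43 to 2.47, 2.31 and 2.34 (0.90 ± 0.19, edgeR adjusted p = 0.011). Closed and opened counts of this list were 21 and 0 without O2, 19 and 0 without O3, 18 and 2 without OS3, 25 and 1 without O1, 40 and 1 without OS1 and 33 and 4 without OS2. Fasl had 3 closed without O2, O3 or OS3, and Xcl1 3 without O2 and 1 without O3 or OS3. The opened region near Ifng lost its call without O1, O2, O3 or OS1, and the one near Ccl5 without O2 or O3.

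Near genes of effector differentiation 9 of 51 closed (17.6%) and 1 opened (1.96%), with a median of -0.43. All 3 intergenic regions near Il12rb2, a chain of the interleukin-12 receptor, closed whichever library was left out. The strongest lay 19.9 kb away and went from 1.82, 2.25 and 1.93 to -0.51, -0.81 and -0.19 (-2.61 ± 0.26, edgeR adjusted p = 0.00035). The region 4.25 kb from Klrc1, which encodes the inhibitory receptor NKG2A, went from 2.6, 3.6 and 3.29 to 0.15, -0.53 and 0.32 (-3.28 ± 0.33). The opened region, 11.6 kb from the chemokine receptor gene Cx3cr1, rose from 2.04, 1.55 and 1.83 to 2.85, 2.94 and 2.61 (1.00 ± 0.21); it lost its call without O2, and 2 regions of the list opened without OS2.

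**Figure D5:**
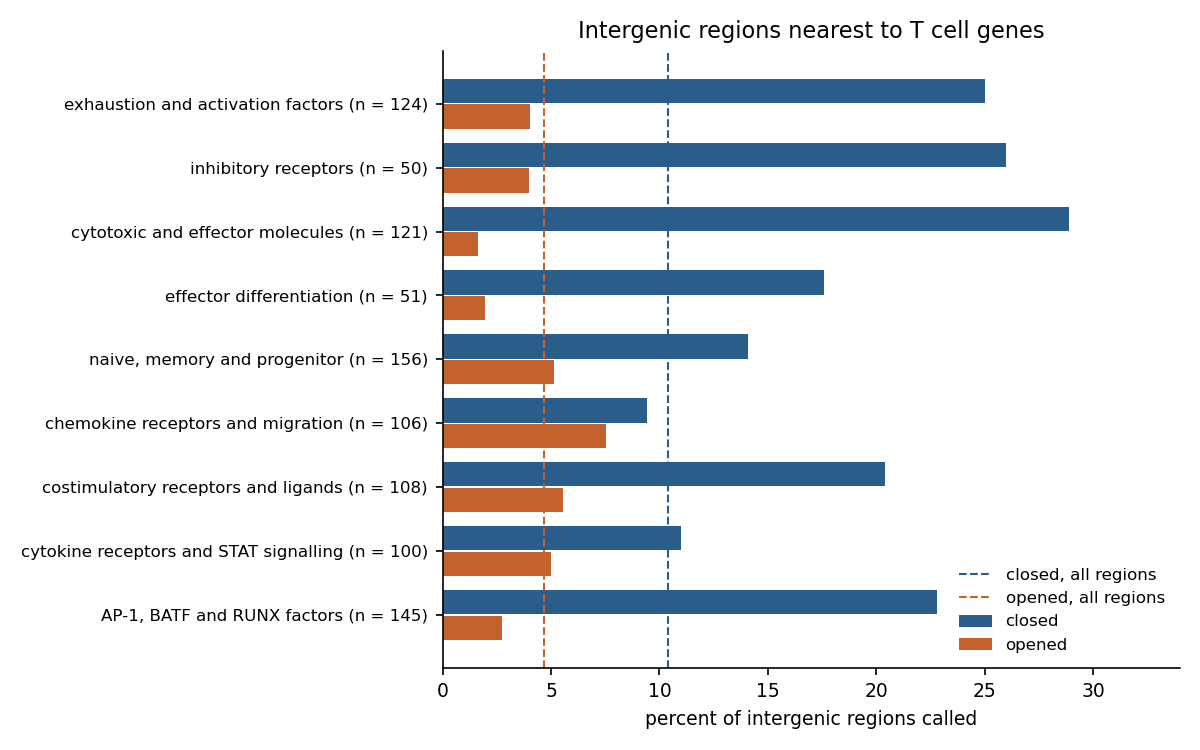
Percent of the intergenic regions nearest to genes of 9 T cell lists that closed or opened (bars; n = regions), with dashed lines at the percentages over all regions of the table, 10.4% and 4.68%. The closed share runs from 9.43% near chemokine receptors and migration genes to 28.9% near cytotoxic and effector molecules. The lists were written with earlier results of these data known.

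Near naive, memory and progenitor genes 22 of 156 regions closed (14.1%) and 8 opened (5.13%), and the genes went apart. Myb and Ccr7, the receptor for homing to lymph nodes, held 10 of 17 and 4 of 9 closed regions. The one 5.62 kb from Ccr7 (chromosome 11, 99160693 to 99161093) fell from 3.76, 3.57 and 3.73 to 0.50, -0.66 and 0.76 (-3.41 ± 0.31, edgeR adjusted p = 0.00027). Regions near Foxo1, a factor of quiescence, and Bcl6, a repressor of memory and helper cells, closed by -2.20 ± 0.29 and -2.04 ± 0.28. All 8 opened regions lay near S1pr1, the receptor for egress from tissue (5 of 21), and Lef1, a partner of beta-catenin (3 of 11). The Lef1 region with the smallest p lay 95.9 kb away (chromosome 3, 131013985 to 131014385) and rose from 3.77, 4.04 and 3.87 to 4.66, 4.80 and 5.08 (0.96 ± 0.15, edgeR adjusted p = 0.0029). The S1pr1 region, 27.4 kb away, rose from 4.53, 5.03 and 4.67 to 5.27, 5.59 and 5.41, with groups apart by less than the spread within the first group (0.67 ± 0.14, edgeR adjusted p = 0.012). The list's closed and opened counts were 17 and 5 without O1, 13 and 5 without O2, 15 and 3 without O3 and 12 and 5 without OS3. S1pr1 had 1 opened region without O1 or O3, 2 without O2 and 3 without OS3, and Myb had 4 closed without O1, 5 without O2 and 3 without OS3. The list's median log2 fold was near 0, at 0.04 under loess and -0.04 under total-count scaling.

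Chemokine receptor and migration genes held 10 closed (9.43%) and 8 opened (7.55%) of 106 regions, with a median of -0.05. Near Ccr9, the gut homing receptor, 2 of 4 opened and 1 closed; the strongest rose from 4.71, 4.62 and 4.91 to 5.57, 5.45 and 5.41 (0.73 ± 0.11, edgeR adjusted p = 0.0022). Near Ccr8 a site 7.32 kb away rose from 1.37, 1.35 and 1.87 to 2.84, 2.83 and 2.37 and was a peak in the 3 lists with SMARTA cells alone (1.17 ± 0.23). Near Cxcr4, the receptor for CXCL12, 2 of 12 opened and 1 closed, and the closed one had the smallest p, falling from 2.94, 2.91 and 2.77 to 0.86, 1.32 and 1.05 at 69.1 kb (-1.83 ± 0.20, edgeR adjusted p = 0.00047). The integrin genes Itgb1 and Itga4 had closed sites, by -1.74 ± 0.22 and -1.44 ± 0.23 at the strongest. The list's closed and opened counts were 10 and 3 without O1, 6 and 5 without O2 and 6 and 3 without O3. Opened regions numbered 1 at Ccr9 without O1, O2, O3, OS1 or OS3, and 1 at Cxcr4 without O1, O3 or OS3. The closed region at Ccr9 lost its call without any of those 5 libraries. Under loess scaling the list had 12 opened and 10 closed.

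Near costimulatory receptors and ligands 22 of 108 regions closed (20.4%) and 6 opened (5.56%), with a median of -0.13. Tnfsf4, the OX40 ligand, had 4 closed of 6, led by a region 16.6 kb away that fell from 1.99, 2.59 and 2.38 to -0.23, 0.44 and 0.23 (-2.27 ± 0.26, edgeR adjusted p = 0.00054). Near Cd28, the main costimulatory receptor, a region 68.7 kb away fell from 3.47, 4.17 and 3.92 to 2.09, -0.20 and 1.36, with OS2 lowest (-2.55 ± 0.43). Cd40lg, the gene of CD40 ligand, by which T cells license dendritic cells, went the other way with 3 opened and 1 closed of 10. Its strongest region, 24.5 kb away on chromosome X, rose from 0.66, 1.41 and 1.27 to 2.32, 2.28 and 2.60 and was a peak only with SMARTA cells (1.28 ± 0.23, edgeR adjusted p = 0.0054). Without O2 11 regions of the list closed and 3 opened, and the counts were 11 and 4 without O3 and 14 and 2 without OS3. The closed region at Cd40lg lost its call without O1, O2, O3, OS2 or OS3.

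Cytokine receptor and STAT genes were near the background, with 11 closed (11%) and 5 opened (5.00%) of 100 regions and a median of -0.01. Near Il10ra, a chain of the interleukin-10 receptor, 3 of 6 closed, the strongest from 2.19, 2.62 and 2.52 to 1.45, 0.15 and 1.29 (-1.40 ± 0.30). Near Socs3 1 of 5 opened, from 4.11, 4.0 and 4.26 to 4.66, 4.81 and 4.81 (0.64 ± 0.13, edgeR adjusted p = 0.011), and it missed the threshold without O2. The list's closed and opened counts were 6 and 3 without O1, 5 and 1 without O2, 4 and 1 without O3, 4 and 2 without OS3 and 9 and 9 without OS2.

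Near AP-1, BATF and RUNX genes, with the related IRF and NF-kB factors, 33 of 145 regions closed (22.8%) and 4 opened (2.76%), with a median of -0.15. Irf8, a factor of dendritic cells and of effector CD8 T cells, had 9 closed of 19. The strongest, 3.88 kb away (chromosome 8, 120760577 to 120760977), fell from 5.39, 4.92 and 5.19 to 3.48, 1.89 and 2.55 (-2.40 ± 0.33, edgeR adjusted p = 0.0012) and OS1 kept the most signal of the libraries with SMARTA cells. A region 13.3 kb from Jun, the AP-1 subunit, fell from 2.73, 1.96 and 2.19 to -0.23, 0.15 and -0.79 (-2.74 ± 0.32). Near Runx2 4 of 10 closed, the strongest from 1.95, 1.96 and 1.60 to -0.14, -0.20 and -0.19 (-2.13 ± 0.24, edgeR adjusted p = 0.00047). Batf3, which encodes an AP-1 factor of dendritic cells, had 1 opened region of 7, from 1.31, 0.77 and 0.54 to 2.40, 1.63 and 1.73, kept in 2 of the 6 fits with a library left out (1.10 ± 0.29). The list's closed and opened counts were 21 and 2 without OS3, 29 and 2 without O1, 23 and 1 without O2, 22 and 0 without O3, 28 and 2 without OS1 and 33 and 7 without OS2.

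Intergenic regions near marker genes of other cells were few. For comparison, 10.4% of all regions closed and 4.68% opened. Near myeloid markers 4 of 16 closed (25.0%), among them a site 3.23 kb from Itgam that fell from 3.14, 3.77 and 3.68 to 1.77, 0.88 and 1.15 (-2.28 ± 0.28, edgeR adjusted p = 0.00070). Summed over the 16 regions, the level was 69.4 to 88.0 CPM in the libraries without and 58.4 to 66.2 in those with SMARTA cells, so these sums did not overlap between the groups. Near CD4 and regulatory T cell markers 1 of 14 closed and 2 opened, with sums of 81.8 to 87.9 and 80.8 to 111 CPM. Near fibroblast and endothelial markers 2 of 12 closed and 1 opened, with sums of 54.9 to 61.1 and 62.3 to 63.5 CPM. The fibroblast and endothelial sums did not overlap either, but here the libraries with SMARTA cells were higher. By edgeR 0 of 8 regions near melanocyte markers and 0 of 2 near B cell markers were called, with 2 and 0 at an unadjusted p under 0.05 and 0 and 0 by DESeq2. Their sums were 22.8 to 25.9 and 18.7 to 22.9 CPM for melanocyte markers and 8.45 to 9.54 and 6.20 to 8.79 for B cell markers. Between the groups the sums overlapped for melanocyte, B cell, and CD4 and regulatory T cell markers. The part of other cells in the results on the T cell lists was not tested. Near the CD4 and regulatory T cell markers 1 region opened without O1 or OS1 and 0 without O2, O3 or OS3, and the closed one lost its call without O2 or O3. Near the fibroblast and endothelial markers 1 closed without O1 or O3 and 0 without O2 or OS3, while 2 opened without O1 or OS2.

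Non-coding genes cover part of the space between protein-coding ones. Of the intergenic regions, 16084 overlapped no annotated gene of any kind, and of these 12.6% closed and 3.89% opened. The 4139 regions in lncRNA genes were much alike, with 12.5% closed and 4.03% opened. Regions over a lncRNA start window closed less often, in 34 of 478 (7.11%), and opened in 30 (6.28%), and their median level was 2.90 log2 CPM against 1.87 for lncRNA regions away from starts. The closed shares of the 3 classes were 7.51%, 7.68% and 4.18% without OS3, 8.37%, 8.29% and 4.60% without O2 and 8.10%, 8.38% and 4.81% without O3. Regions over start windows opened in 3.56% without O1, 2.72% without O2, 2.51% without O3 and 3.97% without OS3, while the other 2 classes opened in 1.26% to 2.40% without 1 of these 4 libraries. Of 2787 non-coding genes overlapped, 40 held 3 or more called regions, 28 of them closed ones alone, 2 opened ones alone and 10 both. Those 3 counts were 21, 0 and 3 without O1, 20, 0 and 1 without O2, 16, 0 and 1 without O3, 32, 3 and 16 without OS2 and 16, 0 and 2 without OS3. In Gm32838, a lncRNA nearest to Sspn, 6 of 6 regions closed whichever library was left out, with a median log2 fold of -2.07. In A930035F09Rik, near Nrp1, 7 of 11 closed, with a median of -1.97, and in Gm42089, near Mmd, 5 of 6. Gm37004, in the gap from Ube2e3 to Itga4, had 8 closed of 17. The opened counterparts were Gm32486, near Pwwp2b (3 of 3, and 1 without O3 or OS3), and 2610035D17Rik (3 of 12, and between 0 and 3 with 1 library left out). Whether these RNAs are made cannot be read from accessibility.

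In the T cell receptor beta locus, where V segments are joined to D and J segments, 30 intergenic regions were counted. Of these 4 opened (13.3%, against 4.68% of all regions) and 1 closed (3.33%, against 10.4%). The closed one, 25.0 kb from Prss2 (chromosome 6, 41550119 to 41550519), fell from 4.19, 4.84 and 4.58 to 3.45, 2.51 and 2.58 (-1.66 ± 0.27, edgeR adjusted p = 0.0033). The opened ones rose by 0.49 to 1.11, and 2 of them lay over the V segments Trbv2 and Trbv23, the latter rising from 4.47, 4.61 and 4.61 to 5.15, 5.05 and 4.95 (0.49 ± 0.12, edgeR adjusted p = 0.019). In the locus 0 regions opened without O2 or O3, 2 without O1 and 1 without OS3, and 2 closed without OS1. V segments resemble each other in sequence, so reads counted there are uncertain. The OT1 receptor is a transgene, and whether reads of it fall in these regions was not tested.

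In the main fit no intergenic region over a tRNA or microRNA gene was called, while 10.4% of all regions closed and 4.68% opened. Of 22 regions over small nucleolar RNA genes 1 closed. The 84 regions over tRNA genes were among the more open ones, with a median of 3.92 log2 CPM, and 0 were called by edgeR or DESeq2, with 2 at an unadjusted p under 0.05. Of 8 regions over microRNA genes, too few to set against the shares over all regions, 0 were called by either tool and 0 had an unadjusted p under 0.05. The most open of these overlaps Mir212 and Mir132, a clustered pair of microRNA genes, 2.09 kb from Ovca2 (chromosome 11, 75173457 to 75173857). Their main products share the seed AACAGUC (bases 2 to 8, in capitals), which is why they are shown side by side, from RefSeq (GRCm38.p6).
miR-132-3p: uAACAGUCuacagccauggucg
miR-212-3p: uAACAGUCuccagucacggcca
The region over the pair lay at 5.68, 5.95 and 5.80 log2 CPM without and at 5.73, 5.85 and 6.06 with SMARTA cells, with overlapping groups (0.07 ± 0.10, edgeR adjusted p = 0.69). The regions at Mir30a and Mir9-1 were much weaker, the first between -0.35 and 0.62 and the second between 2.80 and 3.22 log2 CPM over all 6 libraries.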

How the data were processed

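ATAC-seq of 6 libraries was deposited as a table of counts per region over 74686 regions; the authors deposited these counts unnormalised, as whole numbers. Narrow peak lists, 1 for each library, hold a score, a fold enrichment and −log10 p and q values per peak as the authors' peak caller wrote them; only positions and enrichments were used here. Per the submitters' processing notes the build was GRCm38, and the tools were DiffBind 3.4.11, MACS2 2.1.1, Picard 2.18.9, SAMtools 1.8 and BWA 0.7.17. The handling of duplicates, any shift of transposase cut sites and other settings were not given in the sources used here; duplicates that were kept would make counts look more precise than they are.

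Distances were measured to 21900 protein-coding genes of RefSeq. All 74686 regions were fitted together in edgeR 4.0.16 (R 4.3.3; TMM, quasi-likelihood test of with against without SMARTA cells, Benjamini-Hochberg adjustment over all regions, threshold 0.05); the default filter on low counts removed 0 regions and the biological coefficient of variation was 18%. A standard error is the log2 fold divided by the root of F. Alternatives were DESeq2 1.42.0, total-count and loess scaling (limma 3.58.1), a minimum of 20 counts in 3 libraries, no filter, a replicate block, each library left out, and other limits of distance, gene set and region width. Shares per library were compared with exact permutation tests (scipy 1.17.1). The procedure was tested on simulated data.

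Named regions are the 10 closed and 10 opened with the smallest p among those whose groups do not overlap, the called region with the smallest p for each listed gene, the gaps with the most closed, opened or total regions, the 5 most accessible regions, those beside the distance limits, and regions over microRNA genes or over non-coding genes with 3 or more called regions. The 205 listed symbols all matched. Sequences to show were taken by the smallest p among lncRNA start windows inside called regions. The members and lists were chosen with earlier results of these data known. Motifs were read in start windows alone.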

Additional observations from a re-analysis of the deposited data

How the results depend on the processing

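Across the fits that keep all 6 libraries, 2413 to 2735 intergenic regions closed and 669 to 1072 opened, and 0 were called in the opposite direction. The median log2 fold of intergenic regions, -0.02, was -0.06 under total-count scaling and 0.03 under loess scaling, so its sign depends on the scaling. Leaving out 1 library gave 1547 to 2744 closed and 313 to 1164 opened regions in all, 428 to 765 and 100 to 389 at 2 to 10 kb, 826 to 1494 and 158 to 594 at 10 to 50 kb, 293 to 485 and 45 to 181 at 50 to 100 kb, and medians from -0.04 to -0.00. The share of counts then differed by -1.34 to -0.799 points and that beyond 50 kb by -0.67 to -0.317 points (exact permutation p = 0.20, the smallest that 2 against 3 libraries allow). Counts fell most without O2, O3 and OS3; the cause was not tested.

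Replicate numbers are shared by the groups in the labels, which do not say whether same-numbered libraries belong together. Deviations from the group mean correlated at -0.02, -0.078 and 0.076 between same-numbered libraries. Between libraries of different number the correlations ran from -0.107 to 0.086. With 3 libraries in a group such small values cannot decide whether the libraries are paired. With the replicate number as a block, 2413 regions closed and 701 opened, 675 and 236 at 2 to 10 kb, 1304 and 357 at 10 to 50 kb and 434 and 108 at 50 to 100 kb, with a median of -0.03. Of 142 named regions that were called, 134 to 142 kept their call in the other fits on all libraries and 105 to 135 with 1 library left out, and 0 reversed. With a lower limit of 5 kb 13.1% closed and 3.97% opened, with an upper limit of 50 kb 12% and 3.84%, with every annotated gene as a boundary 13.4% and 4.02%, and among regions of the common width 12.4% and 3.93%. A median of 52 to 92 counts per region limits the detection of small changes at weak sites.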

Other observations

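The libraries' own peak lists hold intergenic peaks, by the same distance rule, that overlap no region of the count table. They numbered 2965, 3256 and 3005 in O1 to O3 and 2943, 3063 and 2841 in OS1 to OS3, 13.5% to 17.7% of the intergenic peaks of a list. Library OS2 had the highest percentage. Their median fold enrichment, as the authors' peak caller gave it, was 2.39 to 2.86, against 4.38 to 5.85 for intergenic peaks inside the table. Of all peaks of a list, 26.7% to 27.5% were intergenic by this rule, with OS2 again at the edge, here the lowest.

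Closed regions were spread over all chromosomes. Chromosome 10, which holds the gaps beside Tnfaip3, Myb, Prdm1 and Ifng, had the highest closed share of its intergenic regions, 15.6% of 1205, and chromosomes 4 and 7 the lowest, 10.0% of 1187 and 10.0% of 1276. The opened share ran from 2.5% on chromosome 8 to 5.58% on chromosome 12. These shares are given as a description, with no test.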
